A study of Mus musculus with 4 samples.

Results

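The Src family kinase genes Blk, Lck, Fyn, Lyn, Fgr and Yes1 were examined in maps of open chromatin from immature fetal γδ thymocytes with and without c-Maf. A region was a stretch covered by overlapping peaks (1 bp or more) of any of the 4 libraries on chromosomes 1 to 19 and X, and it belonged to a kinase when that was the nearest protein-coding gene body of RefSeq GRCm38 within 100 kb. All 6 genes were found, with 149 of the 171490 regions of the genome. Of these, 106 of 122507 were called in at least 2 libraries (consensus regions) and 73 of 78650 in all 4 (shared regions). The farthest region, chr10:39274128-39274432, lay 95.3 kb from Fyn, and 0 regions nearest to a kinase lay beyond the limit.

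The assay was Omni-ATAC-seq, in which Tn5 transposase inserts sequencing adapters into accessible DNA. Each library was made from 15000 to 17000 sorted thymocytes of pooled fetuses at embryonic day 17 to 18, C57Bl/6 after 5 backcross generations. The sort took cells negative for CD4 and CD8, positive for CD3ε, the γδ T cell receptor and CD24, and low for CD45RB. The 2 control libraries (WT 1 and WT 2) came from Maf+/+ Il7r-Cre fetuses and the 2 mutant libraries (KO 1 and KO 2) from Maf fl/fl Il7r-Cre fetuses, so both genotypes carry the Cre. Il7r-Cre acts in lymphoid precursors, so deletion is not limited to the sorted cells. The study asked whether accessibility in immature γδ thymocytes of the IL-17 lineage differs when c-Maf, a transcription factor of the bZIP family, is missing. Whether same-genotype libraries stem from different litters or pools is not given in the labels, and their spread may be technical.

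Src family kinases are membrane-anchored tyrosine kinases that carry out the first steps of antigen receptor signalling. Lck and Fyn phosphorylate the activation motifs of the CD3 chains in T cells, while Blk, Lyn and Fgr are best known from B cells and myeloid cells, and Yes1 is expressed broadly. Blk is also expressed in γδ thymocytes and is required for normal numbers of IL-17-producing γδ T cells. Csk and the phosphatase CD45 set the activity of the family through its C-terminal tyrosine.

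A call means that a deposited peak of the library overlaps the region. WT-only describes a region with a call in WT 1 and WT 2 but in no KO library, and KO-only the opposite case. The rank percentile places the authors' fold enrichment of a region (summit over local background) among the 78650 shared regions of the same library, from 0 for the lowest to 100 for the highest, because the fold itself is not scaled between libraries. A region was ranked higher in a genotype when both of its libraries stood above both of the other.

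The libraries held 102718 (WT 1), 132179 (WT 2), 130935 (KO 1) and 120141 (KO 2) peaks. Background pileup, computed from the deposited values, was higher in WT (1.57 and 1.38) than in KO (0.877 and 0.758), with no overlap of the genotypes. The lowest fold called at that background was between 2.94 and 3.41 in the 4 libraries. Background and genotype cannot be told apart. Of 12 T cell markers found in the gene table, 11 to 12 per library had a gene-end peak, one no more than 1 kb from either end of the gene. The B cell list had such a peak at 5 to 6 of 11 genes in each library, with Cd79a, Cd79b, Ebf1, Cd22 and Cr2 among them in all 4. Pax5, a defining gene of that lineage, had no gene-end peak in any library but held 9 consensus regions. The myeloid list had 2 and 6 of 12 in the WT and 5 and 4 in the KO libraries, the erythroid list 3 and 3 against 4 and 4 of 9, and the stromal list 5 to 6 of 10. The share of all genes with a gene-end peak is not given here, so these counts cannot be read against a background. A peak does not measure expression, and the part of other cells in the results below was not tested.

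RefSeq gave promoter windows of GRCm38.p6 for 4 of the 6 genes, 250 bases before to 50 after a start, and Lck had 2 windows. The sequences are the start-site DNA of these 4 genes, where peak calls differed between Fgr and the other genes but not between libraries. Only bases upstream of transcribed sequence are printed, 5′ to 3′ on the gene's own strand, and capitals mark matches on either strand to the motifs searched.

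Lck proximal start (chr4:129558373-129558622, minus strand): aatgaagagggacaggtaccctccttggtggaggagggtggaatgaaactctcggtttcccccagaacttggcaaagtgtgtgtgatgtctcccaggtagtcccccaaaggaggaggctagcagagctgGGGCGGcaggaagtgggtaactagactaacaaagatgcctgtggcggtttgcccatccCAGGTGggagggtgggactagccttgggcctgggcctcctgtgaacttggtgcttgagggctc
Lck distal start (chr4:129573642-129573891, minus strand): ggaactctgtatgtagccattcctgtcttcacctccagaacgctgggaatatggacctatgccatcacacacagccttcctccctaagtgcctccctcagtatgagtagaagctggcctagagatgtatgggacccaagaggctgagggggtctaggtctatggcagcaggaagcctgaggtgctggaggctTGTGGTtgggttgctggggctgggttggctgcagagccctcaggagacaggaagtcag
Fyn (chr10:39369549-39369742, plus strand): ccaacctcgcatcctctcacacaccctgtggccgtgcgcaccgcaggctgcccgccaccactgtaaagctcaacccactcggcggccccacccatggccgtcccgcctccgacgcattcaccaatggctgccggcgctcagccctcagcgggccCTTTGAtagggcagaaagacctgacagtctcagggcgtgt
Fgr (chr4:132973845-132974094, plus strand): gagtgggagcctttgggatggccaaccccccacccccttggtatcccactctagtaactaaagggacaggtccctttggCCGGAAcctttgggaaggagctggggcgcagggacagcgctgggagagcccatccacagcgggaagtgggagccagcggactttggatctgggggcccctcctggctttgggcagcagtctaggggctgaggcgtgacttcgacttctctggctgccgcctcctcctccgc
Yes1 (chr5:32610921-32611170, plus strand): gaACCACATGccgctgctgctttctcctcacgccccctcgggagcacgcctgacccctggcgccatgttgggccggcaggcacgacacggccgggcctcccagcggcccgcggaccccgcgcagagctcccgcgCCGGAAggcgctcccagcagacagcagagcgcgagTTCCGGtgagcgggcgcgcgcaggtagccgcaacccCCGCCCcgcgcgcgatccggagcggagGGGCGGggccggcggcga

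The 7 motifs were GGGCGG (GC box), TGCTGA (part of a MAF recognition element), CCGGAA (ETS), TGTGGT (RUNX), CANNTG (E-box), CTTTGA (TCF/LEF) and TGANTCA (AP-1). Among all 250-base promoter windows of the table, 33.0% held the GC box, 16.1% the MAF motif, 12.1% the ETS, 13.9% the RUNX, 66.2% the E-box, 13.9% the TCF/LEF and 6.78% the AP-1 motif. The Lck proximal window held a GC box 121 bases and an E-box 63 bases before the start, and the distal window a RUNX match 58 bases before it. The Fyn window held a TCF/LEF match 96 bases before the start, besides a GC box at 55 bases that lies outside the printed stretch. The Fgr window held 1 ETS match, 171 bases before the start. The Yes1 window held 2 GC boxes, 2 ETS matches and an overlapping pair of RUNX and E-box matches. None of the 5 windows held the MAF or AP-1 letters, which says only that these letters are not in these bases. Base composition separated them: Yes1 had 77.2% GC and 37 CpG, Fyn 67.2% and 21, Fgr 64.4% and 9, and the Lck windows 58.0% and 3 and 56.4% and 1, against medians of 52.4% and 6 over all windows.

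A peak covered the windows of Lck (both), Fyn and Yes1 in all 4 libraries, as in 37.9% of all promoter windows. The Fgr window had a peak in 0 of 4 libraries, as did 55.0% of all windows, and the region closest to the window's edge lay 1426 bp upstream of it. Blk and Lyn were placed by their gene ends.

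**Figure D1:**
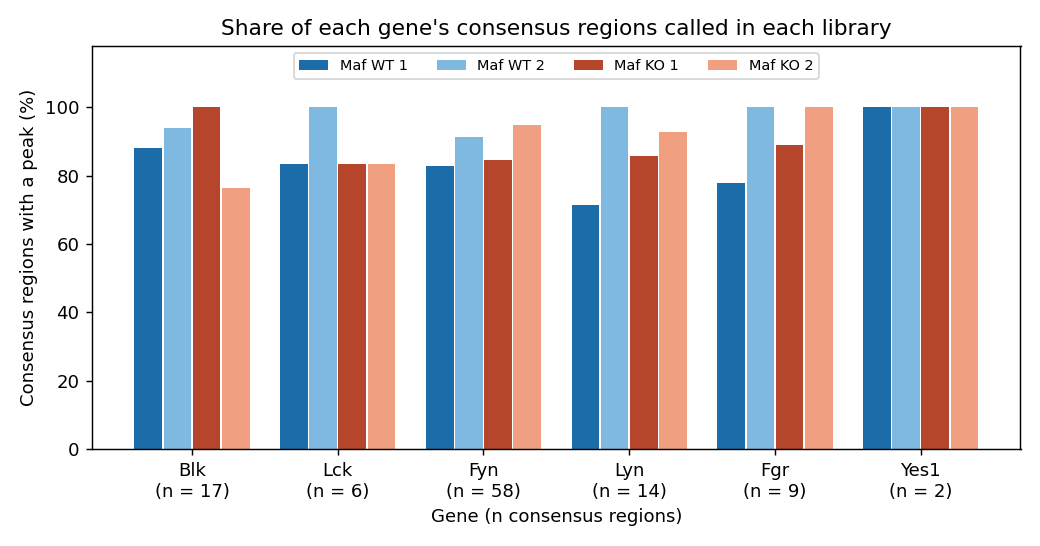
Share of the consensus regions of each kinase gene (y axis, percent) that held a peak in each library (bars); n is the number of consensus regions. Blk runs from 76.5% in KO 2 to 100% in KO 1, and the lowest bar of any gene is Lyn in WT 1 at 71.4%. WT 1 was also the lowest library over all consensus regions of the genome, at 75.6%.

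The calls at the kinase genes as a set did not separate the WT from the KO libraries. Peaks were called at 82.1% of the 106 consensus regions in WT 1, 94.3% in WT 2, 87.7% in KO 1 and 91.5% in KO 2. Over all consensus regions of the genome the shares were 75.6%, 92.5%, 89.0% and 88.5% in the same order. Their KO minus WT difference was 4.73 percentage points, so the low share of WT 1 was not particular to the kinases. The WT mean was 88.2% ± 8.67 and the KO mean 89.6% ± 2.67 (SD, n = 2 each), and the WT libraries enclosed both KO libraries. The difference of 1.42 percentage points gave p = 1 in a 2-sided exact permutation test over the libraries, where 2 against 2 cannot go below 0.333. All 4 libraries called 68.9% of the consensus regions, against 64.2% over the genome. There were 4 WT-only regions (3.77%), against 2.89% of all consensus regions, and 2 KO-only regions (1.89%), against 4.34%. Both shares rest on a few regions, all at Fyn and Lck.

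Ranks of the 73 shared regions were likewise near the genome's background. Both WT libraries ranked above both KO libraries at 12 regions (16.4%), where the background was 18.1%, and both KO above both WT at 10 (13.7%), where it was 18.6%. The other 51 regions overlapped between the genotypes. The median rank percentile of the shared regions was 46.0 and 39.8 in WT and 35.8 and 38.7 in KO. Both WT medians stood above both KO medians, 42.9 ± 4.38 against 37.3 ± 2.07 (SD, n = 2 each), a difference of -5.61 points with an exact permutation p of 0.333, the smallest that these libraries allow. This order was lost when peaks with a −log10 q below 5 were dropped (0.311 points, exact permutation p = 1), with peaks over 100 bp (-0.57, p = 1), as percentiles among all peaks (-1.09, p = 1) and with equal numbers of top peaks (-2.35, p = 0.667). It was also lost without the Blk regions (-4.30, exact permutation p = 0.667). Peak widths, ranked the same way, were larger in both WT libraries at 11 regions (15.1%; background 16.9%) and in both KO libraries at 8 (11.0%; background 16.8%).

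**Figure D2:**
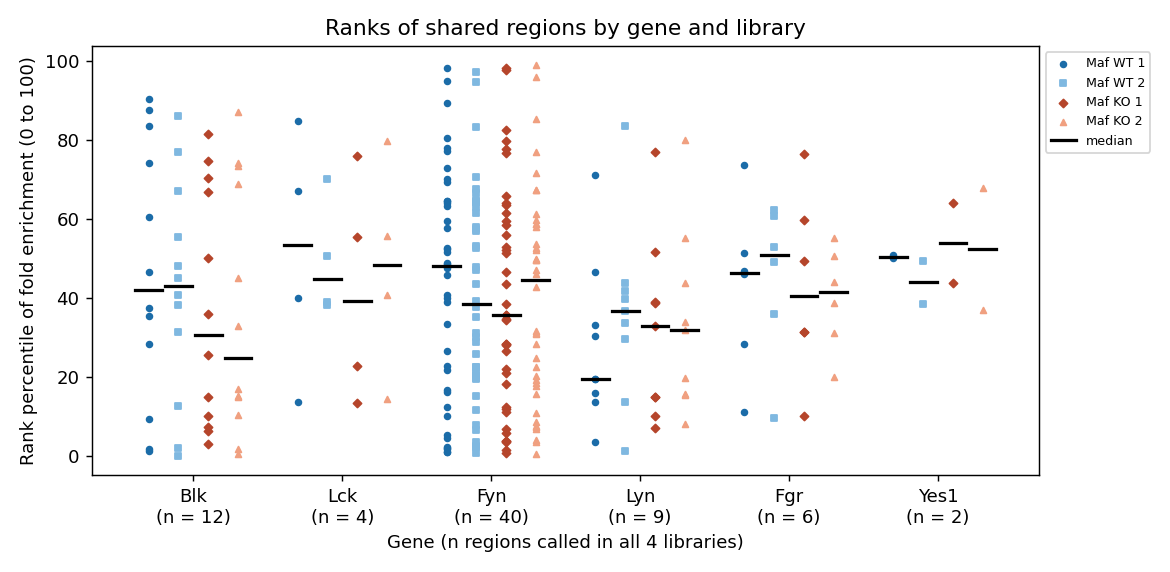
Rank percentile of fold enrichment (y axis, 0 to 100) at every shared region of each kinase gene, by library (points), with the median of the library as a black bar; n is the number of shared regions. At Blk the WT medians of 42.0 and 43.0 lie above the KO medians of 30.7 and 24.9. Both WT medians also lie above both KO medians at Fgr (46.4 and 51.0 against 40.5 and 41.4). At Yes1 both KO medians lie above both WT medians, and at Lck, Fyn and Lyn the genotypes interleave.

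Blk, the kinase tied to IL-17-producing γδ T cells, was the gene of the 6 with the largest difference between genotype medians. The gene lies at chr14:63372837-63417187 (gene ID 12143) and had 24 regions, 17 of them consensus and 12 shared. Across its shared regions the median rank percentile was 42.0 in WT 1, 43.0 in WT 2, 30.7 in KO 1 and 24.9 in KO 2. Both WT medians were therefore above both KO medians (KO minus WT -14.7 points, exact permutation p = 0.333, n = 2 each, the smallest possible). Taken region by region, the median KO minus WT difference was smaller, at -4.33 points. Of 5206 genes with at least 5 shared regions, 20.3% had both WT medians above both KO medians and 18.2% the reverse, so this order alone does not set Blk apart. The share of genes with a difference of this size is not given here. The sign of the Blk difference of medians was the same in all 14 alternatives run, from -20.8 to -4.90 points. The order of the medians was not the same in all of them. The WT and KO medians overlapped with a −log10 q of 5 required (-4.90 points, exact permutation p = 1), with equal numbers of top peaks (-7.33, p = 0.667), with 0.5 of the region covered (-6.81, p = 0.667) and as percentiles among all peaks (-9.15, p = 0.667).

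Within Blk the mean rank was lower in KO at 9 of 12 shared regions, against 50.4% of all shared regions, and 4 of 12 had both WT libraries above both KO libraries, against 18.1%. A pair of low peaks in the body of the gene had the widest gaps. At chr14:63398531-63398801 the percentiles were 35.4 in WT 1, 40.8 in WT 2, 14.9 in KO 1 and 17.0 in KO 2, a difference of genotype means of -22.2 points. At chr14:63405144-63405384 they were 28.3, 31.3, 7.47 and 10.5 in the same order, a difference of -20.8 points. In both regions the gap between genotypes was wider than the gap within either genotype. Both were named for their wide gaps, so this is no separate support for a difference.

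The other WT-higher regions of Blk included one of its tall peaks. At chr14:63377215-63377762, inside the gene, the percentiles were 87.6 and 76.9 in WT and 74.8 and 73.4 in KO, so WT 2 exceeded KO 1 by little. At chr14:63367721-63368049, 4.79 kb outside the lower gene end, they were 46.6 and 38.1 in WT and 35.9 and 15.1 in KO. The 1 region ranked higher in both KO libraries, chr14:63413528-63413804, was among the lowest of all shared regions, at 1.28 and 0.0966 in WT and 2.97 and 1.71 in KO.

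The tallest Blk region, chr14:63388890-63389492 inside the gene, overlapped between genotypes. Its percentiles were 90.4 and 86.0 in WT and 81.6 and 87.1 in KO, with the authors' −log10 q at 83.8, 161.5, 58.7 and 110.9 in WT 1, WT 2, KO 1 and KO 2. The region at the upper gene end, chr14:63416671-63417163, was at 83.5, 67.2, 70.4 and 74.1, and the one 54 bp outside the lower end, chr14:63372627-63372783, at 37.5, 12.8, 25.5 and 15.0. At all 3 regions the libraries of the genotypes overlapped.

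**Figure D3:**
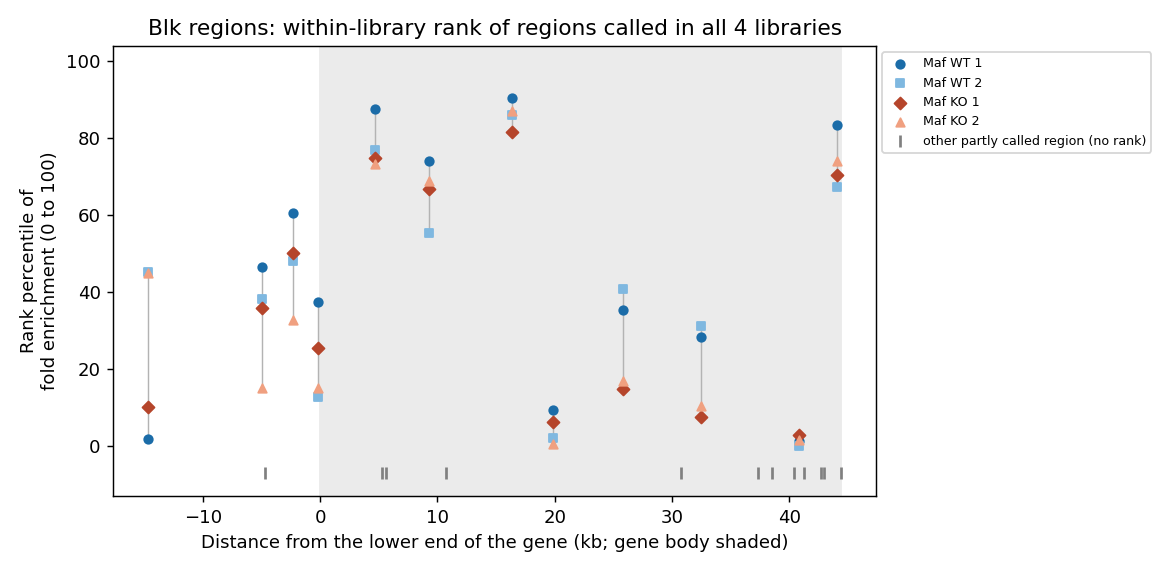
Rank percentile (y axis, 0 to 100) of the 12 shared Blk regions by distance from the lower end of the gene (x axis, kb; gene body shaded), with 1 symbol per library and a grey line over their range; ticks below 0 mark the 12 regions called in fewer libraries, which have no rank. WT symbols lie above KO symbols at the 2 low regions in the right part of the gene body, whereas the tall region near 16.4 kb overlaps.

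Which deposited value was ranked changed the Blk count. Ranked by −log10 q in place of fold enrichment, 9 of the 12 shared regions had both WT libraries above both KO libraries and 0 the reverse, where the background was 20.6% and 21.1%. The upper gene end was then at 91.3 and 88.3 in WT and 81.3 and 86.4 in KO, and the tallest region at 92.2 and 92.9 against 82.7 and 90.6. The −log10 q of a summit depends on its pileup as well as its fold, and the background pileup also differed between the genotypes; its part in this count was not tested. With 1 library left out the criterion is easier, and the genome's share rises to between 31.8% and 39.2% for WT-higher and between 32.2% and 35.9% for KO-higher regions. Blk then had 6 of 13 WT-higher and 4 KO-higher regions without WT 1, 10 of 12 and 2 without WT 2, 6 of 12 and 2 without KO 1, and 6 of 14 and 2 without KO 2.

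Calls at Blk were also uneven, though none met the WT-only or KO-only definition. WT 1 called 19 of the 24 regions, WT 2 19, KO 1 17 and KO 2 13. The matching shares over all regions of the genome are not given here. The 7 regions found in a single library were all in a WT library, 4 in WT 1 and 3 in WT 2, whereas 45.6% of the genome's single-library regions came from a WT library. These 7 were weak, with −log10 q between 1.92 and 9.67, and the pattern was chosen for mention after it was seen. Among the 17 consensus regions the counts were 15, 16, 17 and 13, so KO 1 called all and KO 2 the fewest. As shares these were 88.2%, 94.1%, 100% and 76.5%, against 75.6%, 92.5%, 89.0% and 88.5% of all consensus regions. Of 3 Blk regions called in 3 libraries, 2 were absent from KO 2, among them chr14:63410007-63410299, where the −log10 q was 6.59 for WT 1, 20.6 for WT 2 and 2.72 for KO 1. Over the genome, 3169 regions were absent only from KO 2 and 3315 only from KO 1. Those absent only from WT 1 numbered 12992, and those absent only from WT 2 numbered 1555.

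Lck, the kinase that phosphorylates the CD3 chains and associates with CD4 and CD8, lies at chr4:129548344-129573641 on the minus strand (gene ID 16818), with 8 regions, 6 consensus and 4 shared. None of its 4 shared regions separated the genotypes by rank. The gene has a proximal promoter, known to be active in thymocytes, and a distal one that serves mature T cells, and here the starts lie 15.3 kb apart. The region over the proximal start, chr4:129558248-129558922, was at percentile 84.8 in WT 1, 70.1 in WT 2, 75.9 in KO 1 and 79.7 in KO 2 and was the tallest Lck region. The region over the distal start, chr4:129573499-129573816, was at 67.1, 50.5, 55.5 and 55.7. The proximal region exceeded the distal one in 4 of 4 libraries, by 17.7, 19.6, 20.4 and 24.0 points, and its peak was wider, 542 to 675 bp against 236 to 294 bp. KO minus WT was 0.32 points at the proximal and -3.26 at the distal region, both less than the gap within WT. GC box and E-box letters lie in the proximal sequence printed above, and the RUNX letters in the distal one.

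The other shared Lck regions were chr4:129549384-129549530, at 13.8, 38.9, 13.5 and 14.5, and chr4:129565185-129565576, at 39.9, 38.2, 22.9 and 40.8. In each, a single library stood apart, WT 2 in the former and KO 1 in the latter. Lck had 1 WT-only region, chr4:129556584-129556674 inside the gene, whose −log10 q was 2.66 for WT 1 and 5.53 for WT 2. A region next to the lower gene end, chr4:129547761-129547978, was called in all libraries but WT 1. The Lck median percentile was 53.5, 44.7, 39.2 and 48.3, a difference of -5.41 points (exact permutation p = 0.667, n = 2 each), and without WT 1 it was 7.01 points.

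**Figure D4:**
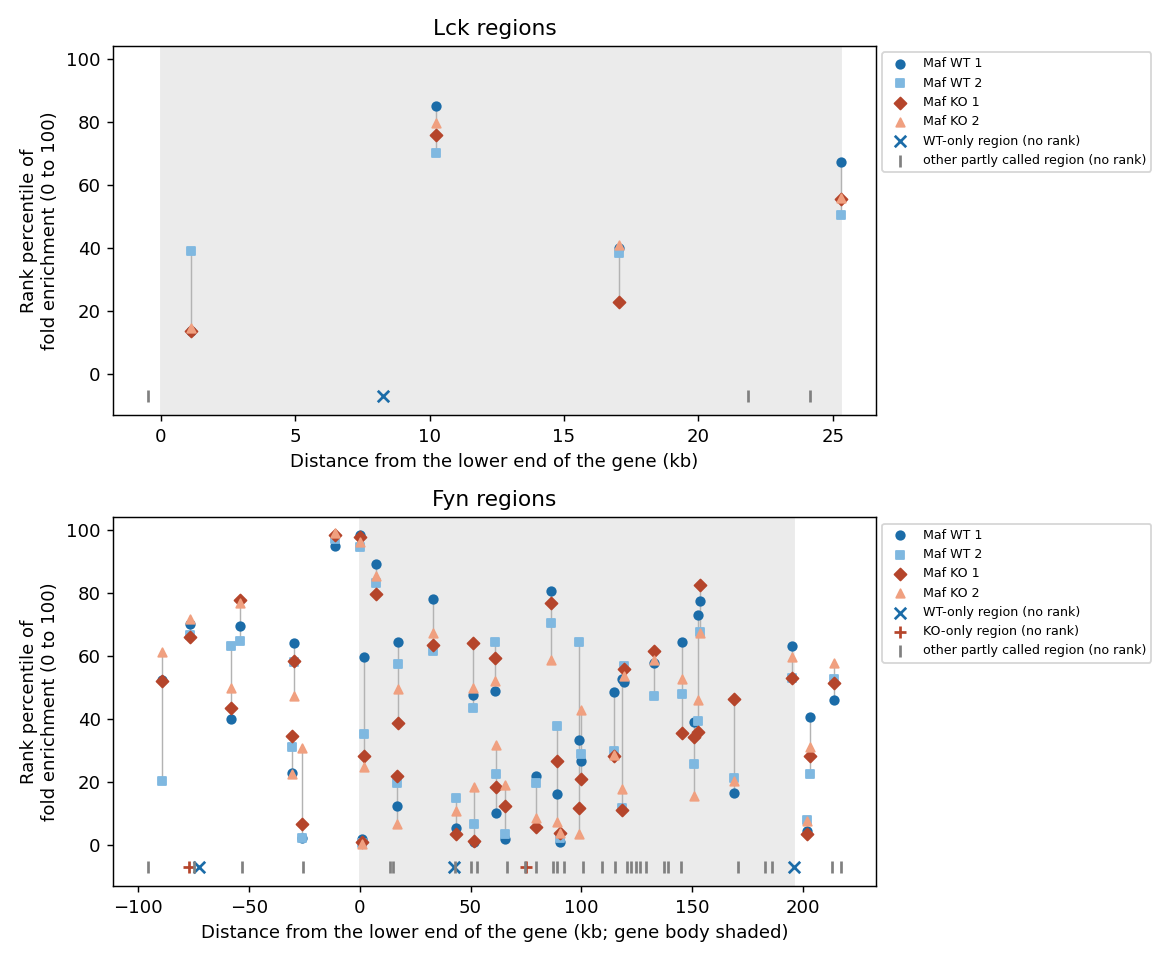
Rank percentile (y axis, 0 to 100) of shared regions at Lck (upper panel) and Fyn (lower panel) by distance from the lower gene end (x axis, kb; gene body shaded), with 1 symbol per library; crosses, plus signs and ticks below 0 mark WT-only, KO-only and other partly called regions. At Lck the proximal start region near 10.2 kb lies above the distal one near 25.3 kb in each library, and at Fyn the start region and the one 10.9 kb upstream lie above 94 in every library.

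Fyn, which acts beside Lck in T cell receptor signalling and binds the adaptor SAP of SLAM receptors, held the most regions. At chr10:39369743-39565381 (plus strand, gene ID 14360), it had 76 regions, 58 consensus and 40 shared, more consensus regions than 99.8% of genes. The region over its start, chr10:39369484-39369897, was at percentile 98.3 and 94.6 in WT and 97.9 and 96.0 in KO. A region 10.9 kb upstream, chr10:39358553-39358800, had the highest rank of all 6 genes as a mean over the 4 libraries, at 94.9 and 97.2 in WT and 98.2 and 98.9 in KO. Both lay near the top of the genome in every library, and the upstream one ranked higher in KO by 2.52 points on average. The start region had the higher rank in WT 1 and the higher −log10 q in all 4 libraries.

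The 40 shared Fyn regions held both orders of the genotypes. Both WT libraries ranked above both KO libraries at 5 of them (12.5%; genome 18.1%) and both KO above both WT at 7 (17.5%; genome 18.6%), so neither share was above the background. The widest WT-higher gap of any kinase was at chr10:39468612-39468874 inside Fyn, with 33.4 in WT 1, 64.4 in WT 2, 11.8 in KO 1 and 3.67 in KO 2. At chr10:39449315-39449509 the values were 21.8 and 19.7 in WT and 5.85 and 8.65 in KO. The WT libraries differed from each other by more at the former than at the latter.

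The KO-higher Fyn regions lay both upstream and within the gene. Upstream, chr10:39315484-39315765 was at 69.5 and 64.7 in WT and 77.7 and 76.9 in KO, and chr10:39343710-39343894 at 2.35 and 2.19 in WT and 6.84 and 30.9 in KO. Inside, chr10:39435121-39435298 was at 1.86 and 3.46 in WT and 12.4 and 19.2 in KO. The first is a tall peak in all libraries, and the others are low ones. The Fyn median percentile was 48.1, 38.5, 35.7 and 44.5, a difference of -3.15 points (exact permutation p = 0.667, n = 2 each) whose sign turned to 1.47 without WT 1.

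Fyn supplied 3 of the 4 WT-only regions and both KO-only regions. The tallest WT-only region, chr10:39565404-39565651, lies 23 bp beyond the 3′ end of the gene, and its −log10 q reached 7.07 (WT 1) and 18.3 (WT 2). The other WT-only regions were chr10:39411989-39412268 inside the gene (3.33 and 3.77) and chr10:39297416-39297555, 72.2 kb upstream (1.88 and 5.32). The KO-only regions were chr10:39292919-39293029, 76.7 kb upstream (6.08 in KO 1 and 2.69 in KO 2), and chr10:39444795-39444937 inside the gene (2.22 and 7.38). Apart from the region at the 3′ end, each had at least 1 library below 4, near the weak end of the lists, which go down to 1.

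Lyn, which starts B cell receptor signalling and also feeds inhibitory receptors in myeloid cells, lies at chr4:3678068-3791612 (gene ID 17096), with 20 regions, 14 consensus and 9 shared. The region over its lower end, chr4:3677821-3678735, was at 46.7 and 43.9 in WT and 39.0 and 55.2 in KO. Its tallest region, chr4:3810348-3810521, lies 18.7 kb beyond the upper end and was at 71.1, 83.6, 76.9 and 80.1. Neither separated the genotypes. Of the 9, 1 region ranked higher in each genotype, both inside the gene. The WT-higher one, chr4:3760717-3760942, was at 16.0 and 29.7 in WT and 7.01 and 15.5 in KO. The KO-higher one, chr4:3783596-3783692, was a low peak, at 3.64 and 1.25 in WT and 10.2 and 8.19 in KO. The Lyn median was 19.6, 36.8, 32.8 and 31.9, and the difference of 4.15 points (exact permutation p = 1, n = 2 each) became -10.8 without WT 1.

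Fgr, a kinase of myeloid cells, lies at chr4:132974095-133001893 (plus strand, gene ID 14191), with 18 regions, 9 consensus and 6 shared. Its start had no peak in any library, and the nearest region, chr4:132975636-132976311, begins 1541 bp downstream of it. That region overlapped between genotypes, at percentiles 28.3 and 9.73 in WT and 31.3 and 20.05 in KO. The region 1676 bp upstream of the start, chr4:132972201-132972419, was at 46.0 and 49.2 in WT and 31.5 and 31.1 in KO. Its difference of genotype means was -16.3 points, wider than the gap within either genotype, but it was named for its wide gap. The tallest Fgr region, chr4:132977654-132977965 inside the gene, overlapped, at 73.7, 62.4, 76.5 and 55.2. The Fgr median was 46.4 and 51.0 in WT and 40.5 and 41.4 in KO, a difference of -7.78 points (exact permutation p = 0.333, n = 2 each), but over the regions inside the gene body it was 2.89. The myeloid marker list, given above, had gene-end peaks at 2 and 6 of 12 genes in WT and 5 and 4 in KO, with no share over all genes beside them.

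Yes1, the broadly expressed member, lies at chr5:32611171-32687066 (plus strand, gene ID 22612) and had 3 regions, 2 of them shared, which went in opposite directions. The region over its start, chr5:32610166-32611271, which also touches the gene body of Gm10461, was at 50.1 and 49.4 in WT and 43.8 and 36.9 in KO. The region 21.0 kb beyond its end, chr5:32708093-32708486, was the taller and was higher in KO, at 50.8 and 38.5 in WT and 64.0 and 67.8 in KO. Its difference of 21.3 points was the largest KO-higher difference of the 73 shared regions. The median of so few regions, 5.95 points higher in KO, describes only this pair.

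**Figure D5:**
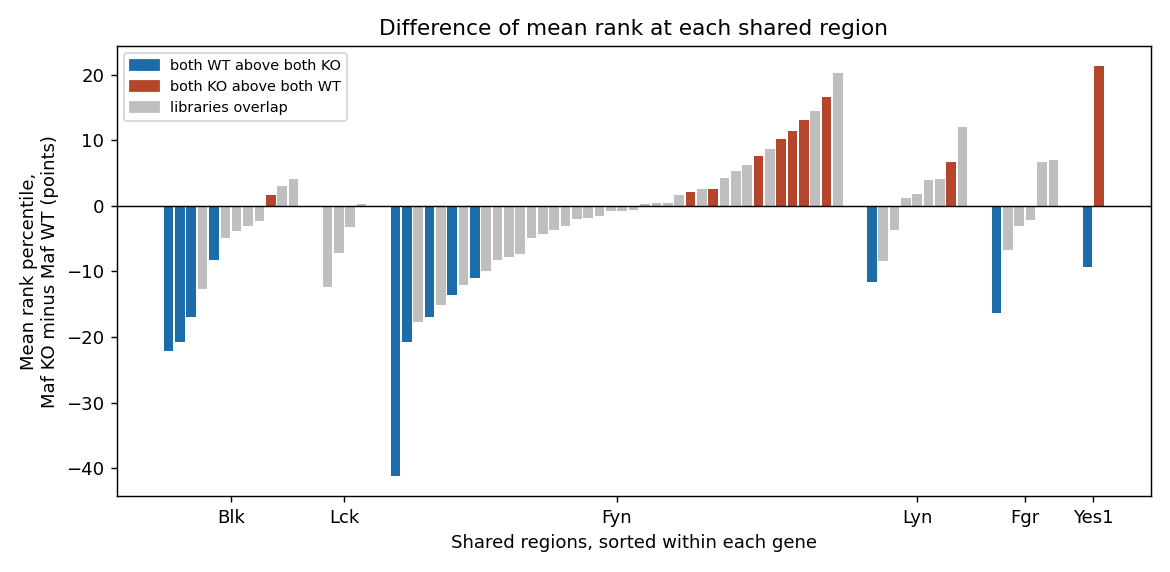
Difference of the mean rank percentile, Maf KO minus Maf WT (y axis, points), at each of the 73 shared regions (bars), sorted within each gene (x axis); blue bars have both WT libraries above both KO, red bars the reverse and grey bars overlap. Blk leans below 0 at 9 of 12 regions, Fyn holds 5 blue and 7 red bars, and Yes1 holds 1 of each.

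The genes most like Blk by their 4 median percentiles, among 5205 candidates with at least 5 shared regions, were Tbc1d22b, Rtn4rl1 and Mef2d, at distances of 3.88, 4.65 and 4.95 percentile points. Their medians in WT 1, WT 2, KO 1 and KO 2 were 45.0, 42.7, 31.3 and 27.3 at Tbc1d22b and 44.9, 45.9, 30.4 and 27.1 at Rtn4rl1. At Mef2d they were 42.6, 40.5, 33.7 and 27.9, so a gap like that of Blk was not particular to it. For Lck, which had 4 shared regions, the nearest genes were Add3, Tmem154 and Rasl11a at 1.35, 2.63 and 4.17 points. The distance is Euclidean over 4 libraries and describes these libraries only.

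Src, related kinases and the pathway gave the setting. Among Src and the related kinases Frk, Srms and Ptk6, 15 consensus regions included 1 WT-only (6.67%) and 0 KO-only, beside genome shares of 2.89% and 4.34%. The WT-only region, chr2:157423206-157423365, lay 541 bp from Src (−log10 q 4.66 and 1.76). At shared regions of these kinases, 1 of 9 ranked higher in WT and 3 in KO, beside 18.1% and 18.6% in the genome.

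Regulators of the family, 16 genes, held 293 consensus regions with 9 WT-only (3.07%) and 15 KO-only (5.12%), each near the same genome shares. The WT-only regions were at Cblb, Pag1, Ptpn2, Ptprj and Ubash3b. The KO-only regions were at Cblb, Csk, Dusp22, Pag1, Ptprc, Ubash3a and Ubash3b. Csk, the kinase that phosphorylates the inhibitory tyrosine of the family, had 2 KO-only regions inside the gene, with a −log10 q of 5.52 and 3.76 at one and 7.99 and 5.24 at the other. Ptprc, which encodes CD45, had 3, one of them at 10.1 in KO 1 and 1.66 in KO 2, and 0 WT-only. Ranks at the shared regions of the list were higher in WT at 38 of 188 (20.2%) and higher in KO at 30 (16.0%), near the genome's 18.1% and 18.6%.

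Genes of antigen receptor signalling, 33 in all and including surface receptors such as Cd4, Cd8a and Cd2, held 567 consensus regions. Of these, 14 were WT-only (2.47%) and 9 KO-only (1.59%), against 2.89% and 4.34% in the genome. The WT-only regions were at Cd2, Grap2, Grb2, Lcp2, Prkcq, Rasgrp1, Skap1, Syk and Vav1, and the KO-only regions at Cd247, Grap2, Plcg2, Skap1, Tec, Themis and Txk. Rasgrp1, an activator of Ras downstream of the receptor, had the tallest WT-only peaks of the list, both outside the gene, with a −log10 q of 12.4 and 48.5 at one and 18.1 and 48.8 at the other. Themis, a thymocyte selection protein, had 2 KO-only regions, the taller at 9.60 and 15.7. At shared regions of the list, 76 of 396 ranked higher in WT (19.2%) and 61 in KO (15.4%), beside backgrounds of 18.1% and 18.6%.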

How the data were processed

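Omni-ATAC-seq peaks were deposited as 1 list per library, 2 Maf WT and 2 Maf KO, which means that each library had its own peak calling. The submitters' processing notes list MACS2 2.1.1, Bowtie2 2.3.4.1, deepTools 3.1.2, Trim Galore, Picard, cutadapt and bedtools, and as builds mm10 and GRCm38, with no role for any. For Tn5 shifting, duplicates and peak settings, details were not given in the sources used here. Each deposited list gives a whole-number score per peak, which was not used. The authors' fold enrichment, a ratio of summit to local background, was ranked within a library, with the tallest peak of a region taken. The deposited −log10 q ended at a q of 0.1, and it and the authors' −log10 p describe or filter peaks, or give the background pileup under a Poisson model. The summit offset, another deposited column, was not compared. Read totals were not analysed here, so depth is described by peak number and background.

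Peaks on chromosomes 1 to 19 and X were merged at 1 bp of overlap and assigned to protein-coding gene bodies of the RefSeq table. All 6 kinases matched. That table has no strand, so starts and strands come from the RefSeq promoter windows. Code ran in Python 3.11.15 with numpy 2.4.6, pandas 2.3.3, scipy 1.17.1 and matplotlib 3.10.9. Merging, assignment and ordering were tested on simulated data. Genotypes were compared by 2-sided exact permutation tests over the libraries, and lists by counts beside the genome's background. Alternatives changed the peak threshold, number, overlap, width, distance, ranked value and libraries.

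Regions named were all WT-only and KO-only regions, those at starts or gene ends, the tallest of each gene and the 5 widest non-overlapping gaps in each direction. Pathway genes were named where they had a WT-only or KO-only region. Other Blk and Lck regions, and the examples at Blk called in fewer than 4 libraries, were chosen after their values were seen. The members and lists were chosen with earlier results of these data known. Of 13 T cell markers, 12 matched the gene table. Some genes of the planned lists are not reported here and were left out of the counts.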

Additional observations from a re-analysis of the deposited data

How the results depend on the processing

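With 2 libraries per genotype, the exact tests could not pass 0.05, so a kept sign shows no significance. As a replicate block, the numbers gave the same differences (calls 1.42, ranks -5.61 and widths -1.45), with p = 1, 0.5 and 0.5 in exact permutation tests whose smallest p is 0.5. Same-numbered libraries shared little (r = 0.116 for deviations of rank across regions and 0.0570 for width), and 2 pairs cannot show pairing.

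Requiring a −log10 q of 5 left 4 KO-only of 80 consensus kinase regions (genome 4.04%) and 6 KO-higher of 51 shared ones (genome 18.4%). Of the shared regions, 7 were wider in WT and 5 wider in KO, and the median rank difference was 0.311. That threshold left 0 WT-only and 2 KO-only at Src and the related kinases and 8 KO-only at regulators. List totals and genome shares of widths are not given for the alternatives, so those counts cannot be read as shares. Equal numbers of top peaks gave a call difference of -4.69 points and 1 KO-only of 96 consensus regions (genome 3.88%). Of the 61 shared regions at that setting, 5 were KO-higher (genome 18.3%) and 5 wider in KO. Counting only libraries that covered 0.5 of a region gave 4 KO-only, a width difference of 3.45 and a Lyn difference of -1.24. Peaks over 100 bp gave 2 WT-only of 92 consensus regions (genome 2.51%), a width difference of 0.26 and a Fyn difference of 1.01. A limit of 20 kb gave 1 KO-only of 92 (genome 4.34%) and -2.61 at Lyn. Gene bodies alone gave 2 WT-only (genome 2.89%) and 1 KO-only (genome 4.34%) of 74 consensus regions. They also gave 6 KO-higher of 52 shared regions (genome 18.6%), -8.46 at Lyn and 2.89 at Fgr. Ranking by −log10 q gave 19 WT-higher of 73 regions (genome 20.6%). Percentiles among all peaks gave 0.593 at Fyn, the lowest peak of a region -1.61 at Lyn, and its widest peak a width difference of 1.01. The causes were not tested.

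Leaving out 1 library loosens each definition, since a lone library then stands for its genotype. It gave 6 to 21 WT-only, 3 to 15 KO-only, 24 to 32 WT-higher and 19 to 26 KO-higher regions, 22 to 32 wider in WT and 20 to 27 wider in KO. The genome's shares moved too, to 6.13 to 17.5% WT-only, 5.89 to 20.7% KO-only, 31.8 to 39.2% WT-higher and 32.2 to 35.9% KO-higher. The call difference ranged from -2.53 (without WT 1) to 9.79, the median rank difference from -9.01 to -2.58 and the width difference from -4.03 to 2.68 (without KO 1). The median rank difference ranged from -9.71 to 7.01 at Lck, -8.17 to 1.47 at Fyn and -10.8 to 12.8 at Lyn, with the sign turned without WT 1 at all 3 and without KO 1 at Lyn (-1.20). WT-only counts were 1 to 3 at Src and the related kinases, 16 to 44 at regulators and 31 to 66 at signalling genes. KO-only counts were 0 to 3, 19 to 46 and 20 to 69. List totals are not given here, and the genome's shares moved as above, so these counts cannot be read as shares.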
